A study of Danio rerio with 6 samples.

Results

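The mitochondrial carriers of the slc25 family were examined in blood cells sorted from the kidney of zebrafish larvae, the site of blood formation in adult fish. The members were the genes with an Ensembl zebrafish ID and a symbol made of slc25a and a number. There were 56 such genes among the 27314 rows of the count table. The rule used names alone and no measured value.

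The cells came from larvae labelled WT with the transgene Tg(coro1a:DenNTR). It places a fusion of NTR and Dendra2, a protein that light turns from green to red, under the promoter of the leukocyte gene coro1a. One group was treated with DMSO and the other with MTZ, and both carried the transgene. NTR usually stands for nitroreductase, an enzyme that makes the drug metronidazole (MTZ) toxic to the cell holding it. At 3.5 dpt and an age of 9 dpf in both groups, kidney cells were turned red by laser, larvae were pooled, and 50 red cells were sorted for each Smart-seq2 library. There were 3 libraries per group. Nothing in the labels shows whether each library had its own pool of larvae, so the p-values rest on a spread between libraries that may be technical only. The title of the series concerns the CXCR4-CXCL12 axis and T cell reconstitution by immigrating stem and progenitor cells, and its labels give MTZ against DMSO as the comparison.

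Carriers of this family sit mainly in the inner mitochondrial membrane, where each exchanges or carries a small set of solutes between the cytosol and the matrix. They pass ADP and ATP, phosphate, organic acids, amino acids, iron, nucleotides and cofactors, so they link mitochondrial respiration and biosynthesis to the rest of the cell. In blood cells the family is best known for the mitoferrins and for the glycine carrier, which supply iron and glycine for heme.

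Levels are given in CPM, counts scaled to the TMM-adjusted library size. The libraries held between 14058382 and 20674280 counts, and 3 counts corresponded to between 0.146 and 0.229 CPM. The 7 leukocyte markers were all detected and summed to between 6463 and 9827 CPM, while the 3 B cell markers found in the table were at 0 in every library. Other markers varied between single libraries. Skeletal muscle markers summed to 9083 CPM in DMSO 1 and to at most 72.8 CPM elsewhere. Neutrophil markers summed to 15118 CPM in MTZ 1 and to between 1010 and 5307 CPM elsewhere. In DMSO 2, MTZ 2 and MTZ 3 most of that sum was srgn, at 979, 1020 and 1207 CPM. The marker lyz had 4.37, 6.57 and 5.22 CPM there, and 3393, 3128 and 9140 CPM in DMSO 1, DMSO 3 and MTZ 1. Exocrine pancreas markers reached 453 CPM in MTZ 3. In pools of this kind, fewer cells of a type and less RNA per cell cannot be told apart.

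Of the 56 genes, 45 had a count in at least 1 library and 11 were at 0 in all 6. There were 16 with 10 or more counts in every library, which is 28.6% of the members, against 18.2% of all rows of the table. Another 15 reached 10 counts in no library. Single libraries had between 25 and 33 members at 10 counts or more. The number was 29, 25 and 28 in DMSO 1, 2 and 3 and 26, 29 and 33 in MTZ 1, 2 and 3, so the groups overlapped. The highest number was in MTZ 3, the library with the most counts.

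**Figure D1:**
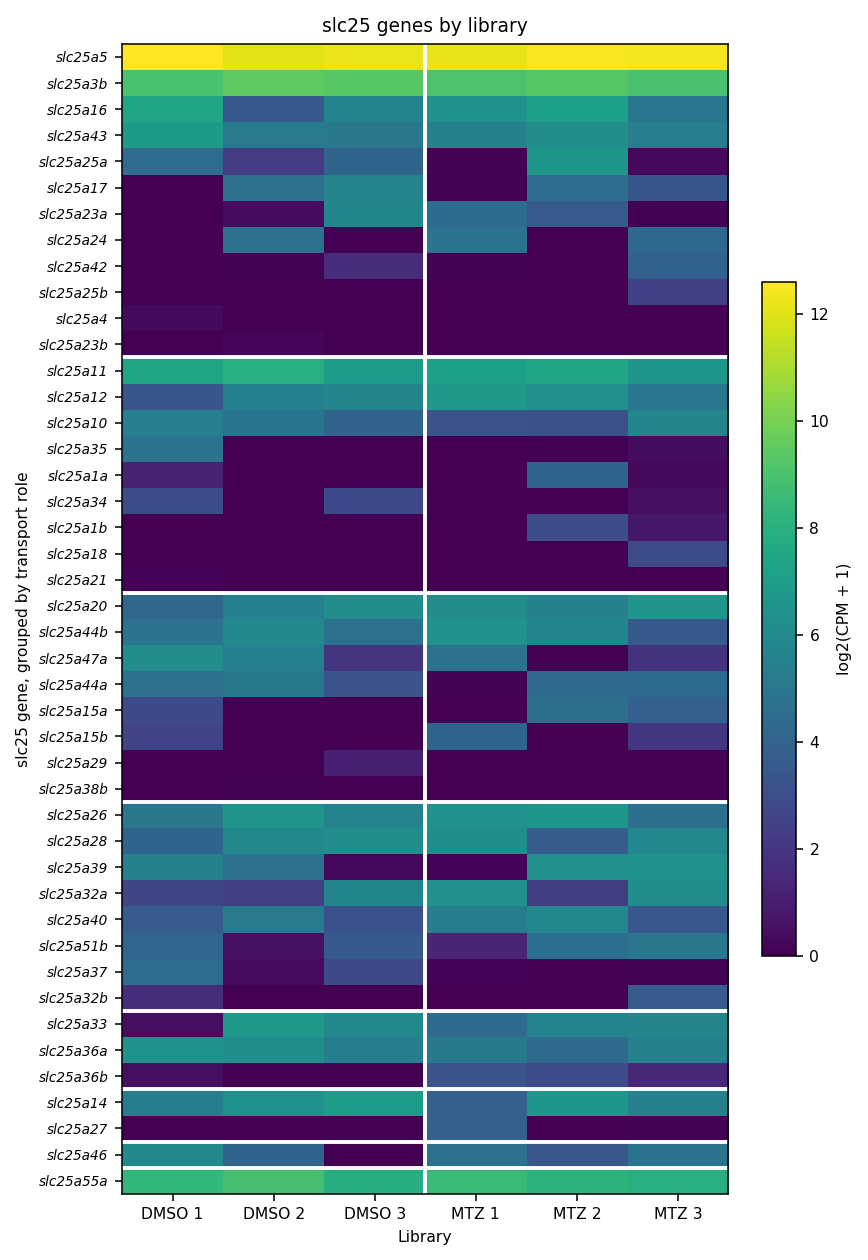
Level of 44 of the 45 slc25 genes with a count in at least 1 library, as log2(CPM + 1) by colour; columns are the 6 libraries and white lines separate the groups and the transport roles. The genes slc25a5 and slc25a3b were high in every library, and most other rows change from library to library within a group.

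Together the members made up 0.660% to 0.762% of the counts of a library. Their levels summed to 8072, 6432 and 6609 CPM in DMSO 1, 2 and 3 and to 6511, 7844 and 7165 CPM in MTZ 1, 2 and 3. The groups overlapped, with means of 7038 ± 900 CPM in DMSO and 7173 ± 667 CPM in MTZ (SD, n = 3). Most of this sum came from a single gene, slc25a5.

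Within the adenine nucleotide and phosphate group, the ADP/ATP and phosphate carriers supply ATP synthase with its substrates and export its product. The ADP/ATP carrier gene slc25a5 (ENSDARG00000092553) had 6172, 4104 and 4797 CPM under DMSO and 4559, 5701 and 5461 CPM under MTZ. The libraries of both groups overlapped, with the highest and the lowest value both in DMSO. The log2 fold change, MTZ against DMSO, was 0.06 ± 0.19 (standard error). Ranked by count among all rows, slc25a5 stood between place 10 and place 16 in each of the 6 libraries. It took 76.5%, 63.8% and 72.6% of the members' counts in DMSO 1, 2 and 3 and 70.0%, 72.7% and 76.2% in MTZ 1, 2 and 3. The smallest of these shares had a Wilson 95% interval from 63.5% to 64.1%, which covers counting error only. Shares and ranks of counts are not transcript numbers, because no transcript lengths were used here. Comparisons between genes rest on counts alone.

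The other ADP/ATP carrier genes were nearly silent. The gene slc25a6 (ENSDARG00000005853) was at 0 in every library, and slc25a4 (ENSDARG00000027355), whose mammalian ortholog is the main form in heart and skeletal muscle, had 3 counts in DMSO 1 and none elsewhere. DMSO 1 was also the library with 9083 CPM of muscle markers, and the part of muscle RNA in these 3 counts was not tested. Within the set of these 3 paralogs, slc25a5 took at least 99.996% of the counts in each library. The genes are close copies, and the counting could have moved reads between them.

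The phosphate carrier had the same one-sided form. The gene slc25a3b (ENSDARG00000025566) had 511, 707 and 636 CPM in DMSO 1, 2 and 3 and 540, 617 and 506 CPM in MTZ 1, 2 and 3, and its paralog slc25a3a (ENSDARG00000027424) was at 0 in all 6 libraries. The groups overlapped for slc25a3b, with means of 618 ± 99.3 CPM in DMSO and 554 ± 56.8 CPM in MTZ and a log2 fold change of -0.16 ± 0.23. These were the 2 members whose libraries differed less than 2-fold within both groups. That is 6.67% of the 30 tested members, beside 10.8% of all tested genes.

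The remaining members of the group were uneven. The gene slc25a16, for a carrier linked to coenzyme A, had 172, 10.3 and 50.1 CPM under DMSO and 85.7, 138 and 30.1 CPM under MTZ. The ATP-Mg/phosphate carriers, which respond to calcium, were on in some libraries and off in others of the same group. For slc25a24 the values were 0, 25.6 and 0 CPM in DMSO and 26.9, 0 and 18.3 CPM in MTZ. For slc25a23a they were 0, 0.287 and 54.1 CPM in DMSO and 20.05, 11.4 and 0.0488 CPM in MTZ. The gene slc25a25a had 100.5 CPM in MTZ 2 and at most 21.9 CPM elsewhere, while its paralog slc25a25b was seen in MTZ 3 alone, at 4.64 CPM. Of the 8 tested members of the group 4 had a higher and 4 a lower fitted level in MTZ, and the median log2 fold change was -0.05.

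Among the carriers of organic acids, aspartate and glutamate, 3 of 12 genes could be tested. The oxoglutarate/malate carrier gene slc25a11 (ENSDARG00000035741) had 176, 242 and 118 CPM under DMSO and 139, 172 and 99.8 CPM under MTZ. The groups overlapped, and the log2 fold change was -0.38 ± 0.41. The aspartate/glutamate carrier gene slc25a12 (ENSDARG00000102362), its partner in the malate-aspartate shuttle, had 9.40, 42.0 and 51.7 CPM in DMSO and 108, 80.7 and 30.3 CPM in MTZ. Here 2 MTZ libraries stood above every DMSO library and MTZ 3 lay within the DMSO range, for a log2 fold change of 1.09 ± 0.90. The paralog slc25a13 was at 0 in all 6 libraries, so slc25a12 held all counts of this carrier type. The dicarboxylate carrier gene slc25a10 had 40.3, 29.0 and 15.3 CPM in DMSO and 9.12, 7.84 and 52.3 CPM in MTZ.

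The citrate carrier genes were close to silent in most libraries. The gene slc25a1a had 15.4 CPM in MTZ 2, 1.38 CPM in DMSO 1 and at most 0.195 CPM elsewhere. Its paralog slc25a1b was at 0 in all DMSO libraries and in MTZ 1, at 6.99 CPM in MTZ 2 and at 0.781 CPM in MTZ 3. The glutamate carrier genes slc25a22a and slc25a22b were at 0 in every library, and slc25a18 was seen in MTZ 3 alone, at 6.44 CPM. MTZ 3 was the library with 453 CPM of exocrine pancreas markers, against at most 10.4 CPM elsewhere, and the part of these cells in the slc25a18 and slc25a25b counts was not tested. The gene slc25a35 had 27.2 CPM in DMSO 1 and at most 0.342 CPM elsewhere. DMSO 1 held the muscle markers, and also the skin markers krt4, krt5 and krtt1c19e at 100, 83.1 and 134 CPM. In the other libraries these skin markers had at most 0.106 CPM. The skin markers cldni and icn were each higher in some other library, and icn2 was at 0. The part of muscle or skin cells in the slc25a35 counts of DMSO 1 was not tested either. Kidney tubule markers summed to 42.1 CPM there, of which slc20a1a alone had 41.9 CPM. The markers cdh17, pax8, slc12a1, slc12a3, lrp2a and cubn were at 0 in that library, and pax2a had 0.153 CPM.

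One gene with a high level has no role assigned here. It is slc25a55a (ENSDARG00000020893), with 325, 475 and 230 CPM under DMSO and 373, 280 and 248 CPM under MTZ. The groups overlapped and the log2 fold change was -0.19 ± 0.34. Its paralog slc25a55b was at 0 in all 6 libraries.

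Carriers of amino acids and carnitine had 6 tested genes of 11. The carnitine/acylcarnitine carrier gene slc25a20 (ENSDARG00000040401), which brings fatty acids to the matrix for oxidation, had 16.9, 41.8 and 73.9 CPM in DMSO and 71.8, 43.2 and 94.2 CPM in MTZ. The groups overlapped, and the log2 fold change was 0.66 ± 0.79. The branched-chain amino acid carrier was counted from both of its genes. The gene slc25a44b ranged from 25.8 to 63.0 CPM under DMSO and from 11.0 to 86.6 CPM under MTZ. The gene slc25a44a took 48.5%, 34.2% and 25.6% of the pair's counts in DMSO 1, 2 and 3 and 0.0612%, 27.7% and 64.6% in MTZ 1, 2 and 3, so the MTZ libraries alone spanned every share seen under DMSO.

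The ornithine carrier genes slc25a15a and slc25a15b had higher means in MTZ, each from 2 libraries. The first had 5.81, 0 and 0 CPM in DMSO and 0, 24.2 and 13.7 CPM in MTZ. The second had 4.89, 0 and 0 CPM in DMSO and 15.5, 0 and 3.03 CPM in MTZ. Its log2 fold change was 1.92 ± 3.09 with all libraries and -0.091 without MTZ 1. Every MTZ library thus had counts of at least 1 of the genes, and of the DMSO libraries only DMSO 1 did. The gene slc25a47a (ENSDARG00000059923), known from mammals as a liver gene, had 71.1, 41.7 and 2.72 CPM in DMSO and 24.98, 0 and 2.59 CPM in MTZ (log2 fold change -2.07 ± 2.21). Liver markers summed to 0.764 CPM in DMSO 1, where slc25a47a was highest, and to at most 9.42 CPM in any library. Of the 8 liver markers, 5 were at 0 in every library. The part of liver cells in the slc25a47a counts was not tested. The glycine carrier genes of heme synthesis were off, with slc25a38a at 0 in every library and slc25a38b at 1 count in DMSO 2.

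The carriers of iron, glutathione and cofactors had the higher sum in MTZ. The 10 genes summed to 149, 265 and 217 CPM under DMSO and to 291, 296 and 329 CPM under MTZ. The sums of the groups did not overlap, with means of 211 ± 58.4 CPM in DMSO and 305 ± 20.8 CPM in MTZ. This held under RLE, upper-quartile and no scaling of the libraries. The gap was narrowest without scaling, where the closest sums were 281 in DMSO 2 and 287 in MTZ 2. It was the only one of the 8 role groups with sums that did not overlap. Among single genes 10.8% of those tested did not overlap, and no such share was computed for sums of genes. The sums overlapped once slc25a39 or slc25a32a was left out. Of the 7 tested genes of the group, 6 had a higher fitted level in MTZ, beside 50.9% of all tested genes. The median log2 fold change of the 7 was 0.96, and none of them passed the test. One of the 6, slc25a28, had a log2 fold change of 0.01, and its sign changed in 3 of the fits with a library left out. Another, slc25a26, had 0.30 with all libraries and -0.013 without MTZ 2. The signs of slc25a39, slc25a32a, slc25a40 and slc25a51b did not change in those fits. The untested slc25a37 of the group was lower in MTZ without overlap, with means of 9.36 CPM in DMSO and 0.0516 CPM in MTZ. Its closest libraries, DMSO 2 and MTZ 1, had only 5 and 2 counts. The 4 thrombocyte markers summed to 1.99, 112 and 32.96 CPM under DMSO and to 154, 129 and 108 CPM under MTZ. These sums overlapped, since DMSO 2 stood above MTZ 3. Among them itga2b, an integrin gene of thrombocytes, had at most 1.83 CPM in a DMSO library and between 47.2 and 70.97 CPM in the MTZ libraries. The groups overlapped in thbs1b and mpl. The thrombospondin gene thbs1b had 0.0764, 112 and 0.0646 CPM under DMSO and 0.106, 60.1 and 0 CPM under MTZ. The thrombopoietin receptor gene mpl had 0, 0 and 32.8 CPM under DMSO and 83.01, 0 and 60.7 CPM under MTZ. The gene gp1bb had at most 0.0764 CPM in a DMSO library and between 0.212 and 0.486 CPM in the MTZ libraries. These gp1bb values were near the 0.146 to 0.229 CPM of 3 counts. The part of thrombocytes in the carriers' sum was not tested.

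**Figure D2:**
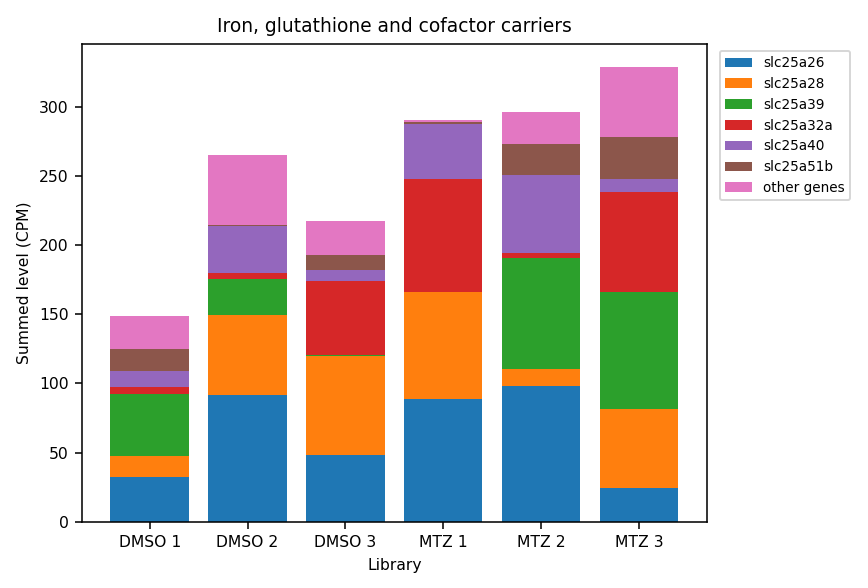
Level of the carriers of iron, glutathione and cofactors in each library, in CPM, stacked by gene, with the remaining genes joined as other genes; genes at 0 in all libraries are left out. The 3 MTZ sums, from 291 to 329 CPM, stand above the 3 DMSO sums, from 149 to 265 CPM, and are made of different genes in different libraries.

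The genes behind this sum differed from library to library. The glutathione carrier gene slc25a39 (ENSDARG00000007449) had 44.5, 25.5 and 0.194 CPM in DMSO and 0.106, 80.1 and 84.6 CPM in MTZ. It was thus nearly absent from DMSO 3 and MTZ 1 and well counted in the other 4 libraries, and its log2 fold change was 1.23 ± 1.98. Its paralog slc25a40 had 11.5, 34.6 and 8.14 CPM in DMSO and 39.7, 55.9 and 9.61 CPM in MTZ, so DMSO 3 and MTZ 1 were not without a glutathione carrier transcript. The folate and FAD carrier gene slc25a32a (ENSDARG00000089791) had 5.27, 4.25 and 53.5 CPM in DMSO and 81.7, 4.01 and 72.3 CPM in MTZ. It was high in 1 DMSO and 2 MTZ libraries, and its log2 fold change was 1.33 ± 1.47. The S-adenosylmethionine carrier gene slc25a26 ranged from 32.3 to 91.4 CPM under DMSO and from 24.2 to 98.1 CPM under MTZ. The NAD carrier gene slc25a51b had 15.97, 0.460 and 10.9 CPM in DMSO and 1.54, 22.9 and 30.6 CPM in MTZ, and its paralog slc25a51a was at 0 throughout.

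The mitoferrin genes, for the iron carriers, behaved differently from each other. The gene slc25a28 (ENSDARG00000052994), the general mitoferrin, had 15.4, 58.5 and 72.2 CPM in DMSO and 77.3, 12.3 and 57.1 CPM in MTZ, with means of 48.7 ± 29.6 and 48.9 ± 33.3 CPM. The gene slc25a37 (ENSDARG00000073743), the mitoferrin of red cell precursors whose loss makes zebrafish anaemic, had 21.9, 0.287 and 5.95 CPM in DMSO and 0.106, 0 and 0.0488 CPM in MTZ. Every DMSO library stood above every MTZ library, but DMSO 2 had only 5 counts. The gene was not tested, because only DMSO 1 and DMSO 3 reached 10 counts. Pooled, it had 383 counts in DMSO and 3 in MTZ, a ratio of rates of 155. The bounds of its exact 95% counting interval were 52.6 and 755. This interval takes reads as independent and leaves out how libraries vary. Such a ratio was computed only for members with 1 to 3 counts in 1 group and far more in the other. A large value was thus built in. DMSO 1 held 286 of the 383 counts, and without it, a choice made after seeing the data, the ratio was 54.9 with bounds of 18.2 and 271. In DMSO 1 slc25a37 took 58.6% of the mitoferrin counts, and in the other libraries slc25a28 took between 92.4% and 100%.

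Erythroid markers had no common pattern over the libraries. The 12 markers summed to 96.8, 81.4 and 72.1 CPM in DMSO and to 12.5, 12.95 and 88.1 CPM in MTZ, and 5 of them, among them the heme synthesis gene alas2 and the adult globin genes hbaa1 and hbba1, were at 0 in every library. The red cell factor gene klf1 and the band 3 gene slc4a1a had 17.6 and 33.4 CPM in DMSO 1, the library with the most slc25a37, and at most 0.0488 CPM elsewhere. Other markers of the list had other patterns. The globin gene hbae1.1 was counted in every library, at 11.8, 5.23 and 16.1 CPM in DMSO and 12.4, 9.91 and 7.61 CPM in MTZ. The globin gene hbbe1.1 was at 0 in DMSO and had 0, 3.04 and 0.830 CPM in MTZ. The erythropoietin receptor gene epor had 32.0, 21.3 and 0 CPM in DMSO and 0, 0 and 38.2 CPM in MTZ. The red cell factor gene gata1a was at 0 in DMSO 1, at 35.97 and 37.5 CPM in DMSO 2 and DMSO 3, and at 0.0530, 0 and 41.4 CPM in MTZ. The transferrin receptor gene tfr1a had 2.06, 18.96 and 18.5 CPM in DMSO and was at 0 in every MTZ library. In MTZ 3 the erythroid sum was high and slc25a37 had 1 count. The part of erythroid cells in the slc25a37 counts was not tested.

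The pyrimidine nucleotide carriers had a paralog pair whose fitted fold changes had opposite signs, and neither gene passed the test. The gene slc25a36a (ENSDARG00000038731) had 86.4, 73.0 and 39.9 CPM in DMSO and 33.1, 19.6 and 45.04 CPM in MTZ, a log2 fold change of -1.03 ± 0.79. MTZ 3 lay above DMSO 3, and the other MTZ libraries lay below all DMSO libraries. The gene slc25a36b (ENSDARG00000015915) had 0.382, 0 and 0 CPM in DMSO, which is 5 counts in all, and 8.86, 6.45 and 1.61 CPM in MTZ. Every MTZ library stood above every DMSO library. Its log2 fold change was 5.41 ± 2.68, and its unadjusted p of 0.0764 in edgeR was the smallest of the family. Its share of the pair's counts was 0.440%, 0% and 0% in DMSO and 21.1%, 24.8% and 3.45% in MTZ. The gene passed the filter on low counts through the MTZ libraries alone, so a difference was built into its being tested. The third carrier of this kind, slc25a33, had 0.382, 112 and 63.2 CPM in DMSO and 20.3, 50.8 and 52.9 CPM in MTZ.

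**Figure D3:**
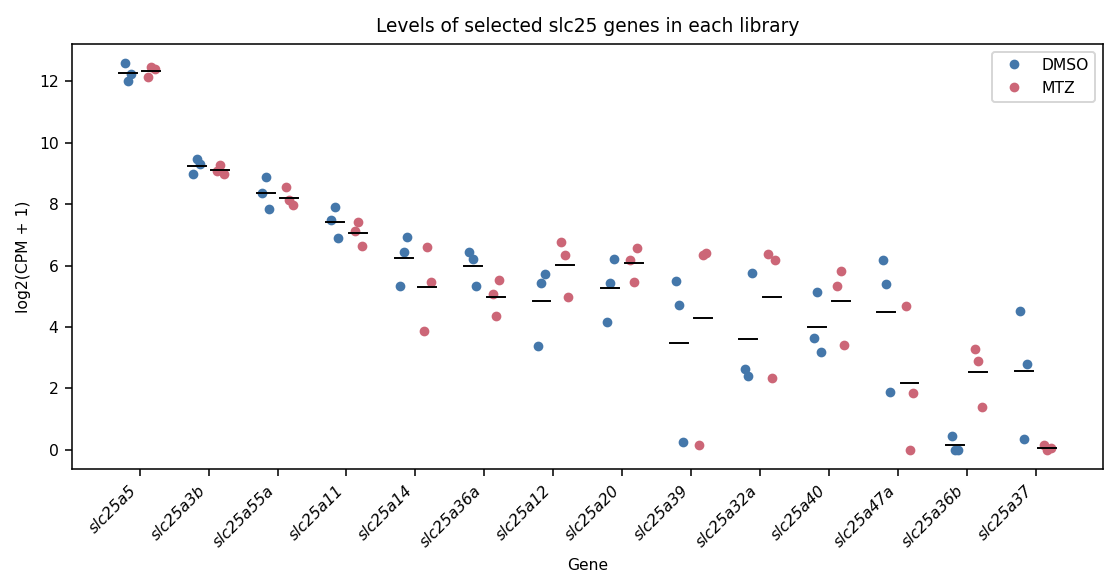
Level of 14 slc25 genes in each library, as log2(CPM + 1); points are libraries and black lines the mean of the log values of a group. Among the tested genes shown, slc25a36b is the one in which the points of the groups do not overlap. The gene slc25a37, which was not tested, also has separate groups, with only 5 counts in DMSO 2.

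The uncoupling-like carrier gene slc25a14 (ENSDARG00000026680) had 39.4, 86.5 and 120 CPM in DMSO and 13.6, 97.4 and 43.3 CPM in MTZ (log2 fold change -0.67 ± 0.84), with overlapping groups. The related slc25a27 was seen almost wholly in MTZ 1, at 13.7 CPM. The gene slc25a46, for an outer membrane protein of mitochondrial shape, had 64.2, 15.7 and 0 CPM in DMSO and 25.6, 9.55 and 26.6 CPM in MTZ. In that gene DMSO held both the highest and the lowest library.

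No member passed the test between MTZ and DMSO. Of the 56 genes, 30 passed the filter on low counts and were tested with edgeR's quasi-likelihood test, with p-values adjusted over all 10283 tested genes. The number called was 0 of 30, beside 0 of 10283 genes (0%), and the smallest adjusted p of a member was 0.9997. At an unadjusted p under 0.05 there were 0 members, beside 327 genes (3.18%). DESeq2 called 0 members beside 130 genes (1.26%), and limma voom called 0 members beside 0 genes (0%). Higher fitted levels in MTZ were found in 16 members, which is 53.3% beside 50.9% of all tested genes, and lower ones in 14. The median log2 fold change was 0.03 over the members and 0.02 over all tested genes. The groups did not overlap in 1 tested member, slc25a36b, which is 3.33% of the members beside 10.8% of all tested genes. It was higher in MTZ, and 5.58% of all tested genes were higher without overlap. Of the tested members 0 were lower without overlap, beside 5.17% of all tested genes. The untested slc25a37 was lower without overlap, but its closest libraries, DMSO 2 and MTZ 1, had only 5 and 2 counts. The shares given here cover tested genes only.

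**Figure D4:**
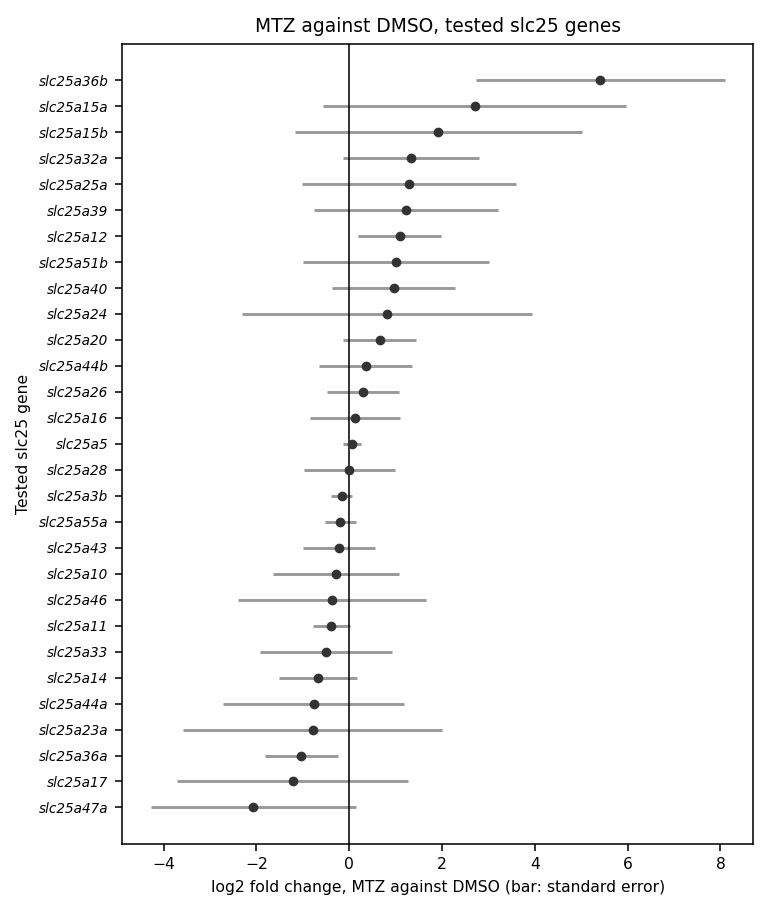
Log2 fold change of 29 of the 30 tested slc25 genes, MTZ against DMSO, with the standard error as bars. The narrowest bars belong to slc25a5 (0.06 ± 0.19) and slc25a3b (-0.16 ± 0.23), and the extremes are slc25a36b at 5.41 and slc25a47a at -2.07.

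Values of highly counted members were the more precise. The log2 fold change had a standard error of 0.19 for slc25a5 and of 3.27 for slc25a15a. With each library left out in turn, 16 of the 30 tested members kept the sign of their fold change in all 6 fits. No such share was computed over all tested genes, and the fits share most of their libraries. For slc25a36b the log2 fold change ran from 4.84 to 5.85 over the 5 fits with DMSO 1. The gene passed the filter on low counts through the MTZ libraries alone. A high value was thus built into these fits, and the range does not show how stable it is. Without DMSO 1 the DMSO group had 0 counts of the gene, so no value is given. Over all 6 fits the log2 fold change ran for slc25a12 from 0.64 to 1.51, for slc25a36a from -1.33 to -0.76 and for slc25a47a from -4.87 to -1.26.

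The spread between libraries of a group was wide for most members and narrow for a few. With 1 count added to every value, 15 of the 30 tested members differed more than 10-fold between libraries of at least 1 group. That is 50%, beside 58.5% of all tested genes. None of the 4 members with a mean of 100 CPM or more did so, and their larger within-group range lay between 1.38-fold and 2.07-fold. Of all 1858 tested genes at that level, 5.06% did. Of the 12 members between 30 and 100 CPM there were 4, beside 40.3% of genes at that level, and of the 14 members below 30 CPM there were 11, beside 86.5%. The median range below 30 CPM was 427-fold over the members and 205-fold over all tested genes at that level.

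**Figure D5:**
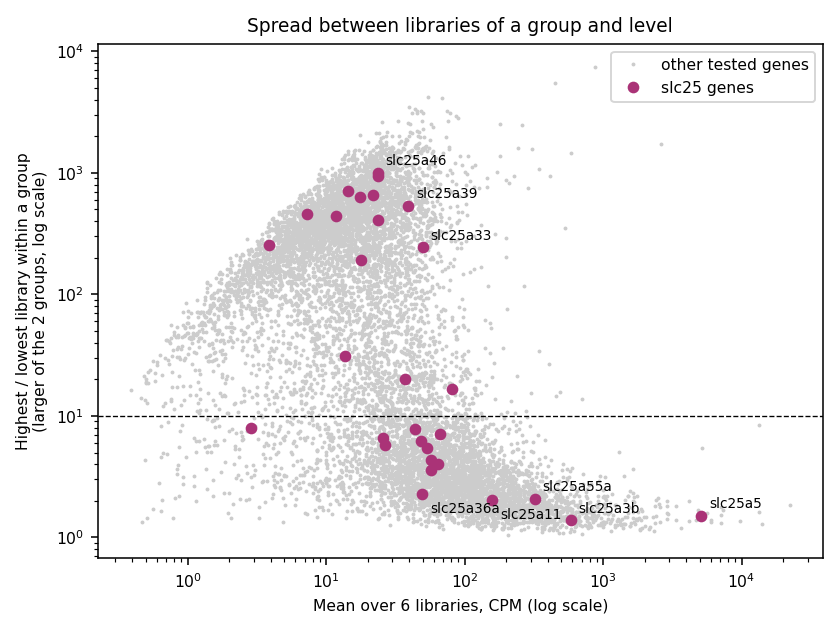
Ratio of the highest to the lowest library within a group, after adding 1 count, against the mean level in CPM, both on log scales; grey points are the other tested genes, purple points the 30 tested slc25 genes and the dashed line marks 10-fold. The members at 100 CPM or more lie between 1.38-fold and 2.07-fold, and 11 of the 14 below 30 CPM lie above 10-fold.

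Libraries of one group could differ by far more than a few counts. In 13 of the 30 tested members, 1 library of a group had fewer than 10 counts while another of the same group had 100 or more, which is 43.3% beside 44.6% of all tested genes. The gene slc25a46 went from 840 counts in DMSO 1 to 0 in DMSO 3, and slc25a25a from 1652 counts in MTZ 2 to 1 in MTZ 1. The gene slc25a17, for the peroxisomal carrier of the family, had 0, 25.8 and 48.0 CPM in DMSO and 0.0530, 22.3 and 9.27 CPM in MTZ.

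Some members are neighbours in the genome. In the RefSeq table of the GRCz12tu assembly, which is not the build of these files, slc25a5 and slc25a43 are adjacent protein-coding genes, and so are slc25a29 and slc25a47a. The gene slc25a43 had 117, 35.6 and 32.4 CPM in DMSO and 44.0, 74.5 and 40.3 CPM in MTZ. The gene slc25a29 was seen in DMSO 3 alone, at 1.16 CPM, where slc25a47a had 2.72 CPM.

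Genes that import the carriers or work beside them were counted from a separate list of 64 names. There were 60 of them in the table, and 51 were tested. Of these 28 had a higher and 23 a lower fitted level in MTZ, and the median log2 fold change was 0.04, and edgeR called 0. At an unadjusted p under 0.05 there were 2 beside 3.18% of all tested genes, idh3a among them, and DESeq2 called 2 beside 1.26% of all tested genes, again with idh3a. The citric acid cycle gene idh3a had 130, 172 and 144 CPM in DMSO and 349, 276 and 344 CPM in MTZ, with no overlap and a log2 fold change of 1.12 ± 0.29 (edgeR adjusted p = 0.9997, DESeq2 adjusted p = 0.0419).

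Carrier genes outside the naming rule were also measured. The uncoupling protein genes have other symbols, so the sums and shares of the members leave them out. The mean over all libraries was 922 CPM for ucp2, beside 586 CPM for slc25a3b. The uncoupling protein gene ucp2 had 983, 618 and 444 CPM in DMSO and 772, 1327 and 1386 CPM in MTZ. Here 2 MTZ libraries stood above every DMSO library, and the log2 fold change was 0.77 ± 0.35 (edgeR unadjusted p = 0.057). Its paralog ucp1 was seen in DMSO 3 alone, at 15.6 CPM, and ucp3 was at 0. The pyruvate carrier genes mpc1 and mpc2, which belong to another family, had means of 79.7 ± 21.9 and 215 ± 17.1 CPM in DMSO and 139 ± 48.3 and 324 ± 106 CPM in MTZ. Their log2 fold changes were 0.81 ± 0.45 and 0.59 ± 0.32. The import receptor gene tomm70a, whose protein receives carrier precursors at the outer membrane, had 99.2, 45.5 and 90.2 CPM in DMSO and 166, 140 and 126 CPM in MTZ, with no overlap and a log2 fold change of 0.88 ± 0.45. Other import genes of the list did not share this rise. Their log2 fold changes were -0.30 for timm22, -0.90 for timm29, -0.20 for timm9 and -0.65 for timm10. For timm10b, tomm20b and tomm40 they were 0.04, 0.06 and 0.01. Of the 51 tested genes of the list, 23 had a lower fitted level in MTZ, among them nnt at -0.74 ± 0.45. No gene of this paragraph passed the edgeR test. The groups did not overlap in 4 of the 51 tested genes of the list, which is 7.84% beside 10.8% of all tested genes.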

How the data were processed

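The table that the authors deposited holds estimated counts of 6 libraries, without scaling. The submitters' processing notes name HISAT2 and GRCz11; which tool counted, with which annotation and whether by strand, is not given in the sources used here. Decimals were present in 8.31% to 9.90% of a library's values above 0, and the counts were rounded. Close paralogs, overlapping genes and antisense genes are uncertain. Another 2 rows with an assembler ID and the symbol slc25a34 did not meet the rule and were left out.

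MTZ was compared with DMSO by edgeR 4.0.16 on R 4.3.3 (quasi-likelihood test, two-sided, TMM factors, filterByExpr with a minimum count of 10, group alone). Calls were made under 0.05 after Benjamini-Hochberg adjustment over all tested genes. Standard errors were derived from the fold change and the test's F. Alternatives used DESeq2 1.42.0, limma 3.58.1, other scalings and filters, the replicate block and each library left out. Named genes were the 12 tested members of smallest p, the 6 of highest mean CPM and 6 given by name, 18 in all; other members were chosen after their values were seen. Members and lists were chosen with earlier results of these data known. Of 56 members, 55 matched a symbol in the RefSeq table. Intervals and floors cover counting error only. Some genes are counted in totals but not reported here by name.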

Additional observations from a re-analysis of the deposited data

How the results depend on the processing

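EdgeR called 0 members under every alternative, and so did DESeq2 and limma voom. The count over all genes was 0 except with DESeq2 (130) and without a filter on low counts (52), and the partner list had 2 calls with DESeq2. With the replicate block 0 members were called, and their median log2 fold change was 0.29, 19 of 30 higher. Same-numbered libraries did not deviate together (correlations of -0.0079, -0.00083 and -0.046 over genes), so the number is not taken to pair them. With a library left out, the members' median ran from -0.049 to 0.42, and the log2 fold change from -0.057 to 0.23 for slc25a5, from -0.41 to 0.12 for slc25a55a and from -0.41 to 1.48 for slc25a16. The sign changed without DMSO 2 for the first 2 and without DMSO 2, DMSO 3 or MTZ 2 for slc25a16; the cause was not tested. RLE and upper-quartile scaling gave 15 members higher and 15 lower. The median was 0.36 with limma voom and -0.14 when genes needed 10 CPM in 3 libraries. The other 12 tested named members kept their direction in every alternative that tested them. These 12 were named for having the smallest p in the main fit, so a stable direction was partly built into their choice. The genes slc25a37, slc25a1b and slc25a38a were not tested. Depth limits the members near the floor. By counting error alone, a count of 0 allows a level of up to 0.146 CPM in the deepest library and 0.229 CPM in the shallowest. These bounds leave out how libraries of a group vary. The gene slc25a46 had 840 counts in DMSO 1 and 0 in DMSO 3, so a 0 in a library does not bound the level in its group.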
